A study of Homo sapiens with 647 samples.

Results

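The ATF4 amino acid response genes were described across T47D cell lines and drug treatments. They are 39 genes, of 54592 in the table, chosen by symbol as ATF4 itself and genes known as its targets or partners in the response to amino acid shortage. All 39 were present in the table of counts. They were sorted by role. There were 10 stress factors and feedback regulators, 6 serine and one-carbon enzymes, and 6 other amino acid and metabolic enzymes. A group of 8 held the transporters together with the lipoprotein receptor VLDLR, and 9 were genes of tRNA charging and export.

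T47D is an oestrogen receptor positive line of luminal breast cancer. The study profiled RNA from 647 plate-based SMART-Seq2 libraries of the parental line and of lines that carried a lentiviral GFP control, wild-type FGFR1, FGFR2 as wild type or with the M538I, N550K or K660N change, or the ligand FGF3. FGFR1 and FGFR2 are receptor tyrosine kinases for fibroblast growth factors. Cells had been plated for 48 h and were treated for 24 h. The agents were fulvestrant at 100 nM, which degrades the oestrogen receptor, palbociclib at 1 uM, which inhibits CDK4 and CDK6, FIIN-3 at 100 nM, which inhibits FGF receptors covalently, trametinib at 500 nM, which inhibits MEK, and FGF2, whose dose is not given in the sources used here. Untreated wells were labelled DMSO or control. Each group was a line under a treatment, with 4 to 6 libraries in each. The sample titles run through the same numbers in separate series, so the libraries were kept as set 1, with 64 groups, and set 2, with 48 groups, and every test stayed within a set. All groups stem from a single cell line, and nothing in the labels says that libraries of a group came from separate cultures, so p-values measure only the spread between these libraries.

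ATF4 is a transcription factor of the integrated stress response. Kinases that sense uncharged tRNA, unfolded protein or other stress phosphorylate eIF2, which lowers protein synthesis overall but lets ribosomes reach the ATF4 reading frame. ATF4 with a C/EBP partner then binds C/EBP-ATF response elements and switches on amino acid transporters, synthesis enzymes and tRNA synthetases, and the regulators DDIT3, TRIB3 and PPP1R15A. Because ATF4 is controlled to a large part by translation, its mRNA is a poor measure of its protein, and no protein was measured here.

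The response element is shown in the promoters because the members were grouped for ATF4 control. RefSeq promoter windows of GRCh38.p14, each 300 bases from 250 before the transcription start to 50 after it, were matched for 33 of the 39 members. The core letters TGATGNAA, searched on both strands, stood in a window of 13 of these 33 members (39.4%), against 1217 of 27305 genes in the same table (4.46%). Of the matched members, 4 of 7 transporter-group genes, 5 of 9 tRNA genes, 3 of 9 stress regulators, 1 of 5 other enzymes and 0 of 3 serine enzymes held it. Below are 9 of the 13 stretches, 5′ to 3′ on the gene's strand, with the matching letters in capitals, so that a reader can compare their flanks.
ATF3 (chr1:212565186-212565253, plus strand): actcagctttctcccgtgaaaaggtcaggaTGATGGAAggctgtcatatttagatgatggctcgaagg
CEBPG (chr19:33374041-33374108, plus strand): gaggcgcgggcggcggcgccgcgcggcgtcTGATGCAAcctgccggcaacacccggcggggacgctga
CHAC1 (chr15:40953232-40953299, plus strand): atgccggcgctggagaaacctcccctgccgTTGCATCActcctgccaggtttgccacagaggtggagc
ASNS (chr7:97872439-97872506, minus strand): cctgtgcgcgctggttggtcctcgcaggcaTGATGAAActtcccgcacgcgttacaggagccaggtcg
SLC1A4 (chr2:64989362-64989428, plus strand): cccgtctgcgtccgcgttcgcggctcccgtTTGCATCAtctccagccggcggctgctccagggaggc
SLC1A5 (chr19:46784874-46784941, minus strand): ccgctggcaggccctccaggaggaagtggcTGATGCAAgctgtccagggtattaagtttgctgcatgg
AARS (chr16:70289656-70289723, minus strand): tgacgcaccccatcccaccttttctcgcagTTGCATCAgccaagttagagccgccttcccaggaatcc
GARS (chr7:30594815-30594882, plus strand): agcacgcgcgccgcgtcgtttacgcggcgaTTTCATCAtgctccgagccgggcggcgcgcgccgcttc
MARS (chr12:57488034-57488097, plus strand): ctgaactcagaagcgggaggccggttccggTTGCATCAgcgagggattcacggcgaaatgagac
The letters TTGCATCA, the reverse complement of TGATGCAA, recurred in CHAC1, SLC1A4, AARS and MARS, while CEBPG and SLC1A5 held TGATGCAA itself. SLC7A1, SLC3A2, CARS and NARS, which are not printed, held the core within 40 bases of their start, as did SLC1A4, GARS and MARS. CARS held it as TTGCATCA and NARS as TGATGCAA. NUPR1, PSPH, SHMT2, ALDH1L2, PYCR1 and SLC7A11 had no entry in the promoter table. A match describes letters in a window and does not show binding.

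Per transcript length, members differed widely in level. In the GFP line at DMSO (n = 6), the median TPM was 307.9 for SLC3A2, the heavy chain shared by several amino acid exchangers, 197.1 for the stress cofactor NUPR1, 192.4 for the glycyl-tRNA synthetase GARS, 163.5 for the proline enzyme PYCR1 and 127.2 for the alanyl-tRNA synthetase AARS. ATF4 itself had a median TPM of 94.9 and DDIT3, the CHOP factor, 65.95. ASNS, asparagine synthetase, stood at a median TPM of 26.9 and TRIB3, a pseudokinase that holds ATF4 in check, at 32.7. SLC7A11, the cystine-glutamate exchanger, was among the lowest with a median TPM of 0.632, above CBS at 0.261 and VLDLR at 0.103. These are levels across genes, whereas the values from here on are CPM, counts scaled to a common library total, compared only within a gene.

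Depth and quality differed between libraries. Set 1 had a median of 7570053 counts per library (512961 to 13012180) and set 2 of 2887186 (619509 to 4804935), and the medians of SLC7A11 and CHAC1 rest on few reads in set 2. In 16 libraries, 14 of them in set 1 and 8 of those DMSO libraries, the mitochondrial ribosomal RNA MT-RNR2 took 1.09% to 4.43% of counts instead of at least 5%, and NUPR1 reached up to 5011 CPM (GFP at DMSO). Where leaving these libraries out changed the call of a value named below, or moved a called one by over 1.5 times, the value without them is given too. Title numbers fall into ranges of 96, and the 14 libraries of set 1 all lie in range 3. DMSO and fulvestrant libraries of set 1 lie partly in that range. Their counterparts with FGF2 added share only ranges 1 and 2 with them. For range 3, the effects of FGF2 and of the range therefore cannot be told apart. Another 22 libraries had under 33.3% of their set's median depth. Keratins KRT8, KRT18 and KRT19 had reads in 647 of 647 libraries, with median CPM of 10820, 7829 and 10530. TFF1, an oestrogen receptor target, had reads in 497 of 647. Of 12 markers of other cell types, COL1A2, PTPRC and PECAM1 had a median of 0, and the summed CPM of all 12 ran from 12.7 to 62.995 in set 1, with a median of 25.1, and from 9.38 to 117.95 in set 2, with a median of 34.5. COL1A1 alone had a median of 22.3. LUM, which encodes a matrix proteoglycan, was called higher in 7 and lower in 2 of the 25 comparisons that tested it, and its values stand beside the inhibitor results. The transgenes matched the line labels: FGF3 had a median log2 CPM of 8.27 in the FGF3 line of set 1 and FGFR1 of 9.68 in the FGFR1 line, where the GFP line stood at -1.86 and 3.11. FGFR2 had medians of 8.62 to 9.38 in the 4 FGFR2 lines of set 1 and 4.01 in GFP, although single libraries overlapped, with 4.82 the lowest in K660N and 5.1 the highest in GFP.

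The question of the first comparisons was how FGF2 acts on the members in lines with and without extra receptor. Log2 fold changes are from edgeR's quasi-likelihood test, are given ± SE, and count as called where the Benjamini-Hochberg adjusted p over all genes tested is under 0.05. When FGF2 was added to fulvestrant in the 4 FGFR2 lines (24 libraries against 24), 12 of 39 members rose and 4 fell. Over all genes tested, 16.9% rose and 20.3% fell. The median log2 fold change was 0.14 over the members and within 0.04 of 0 over all genes, as in all comparisons here except the FGF3 line at DMSO (-0.11). In such bulk libraries a change in the share of cells that express a gene and a change in its RNA per cell cannot be told apart. Transporters made up 5 of the 12 genes that rose, while 3 of the 6 serine and one-carbon enzymes fell.

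SLC7A11 had the largest rise of these. Its CPM was 3.27, 6.37 and 10.4 (lowest, median and highest) under fulvestrant and 8.75, 17.2 and 32.2 with FGF2 added. All 24 libraries with FGF2 lay above the mean of their own line under fulvestrant (log2 fold change 1.43 ± 0.12, adjusted p = 1.69e-13), although the ranges across lines overlapped. By line, the median CPM went from 4.13 to 14.99 in wild-type FGFR2, from 6.24 to 25.5 in M538I, from 6.90 to 18.9 in N550K and from 8.27 to 14.4 in K660N. SLC7A5, the leucine transporter that works with SLC3A2, went from 45.7, 135.9 and 199.8 CPM to 138.6, 195.9 and 292.2 CPM (0.60 ± 0.10, adjusted p = 4.15e-06). SLC7A1, a carrier of arginine and lysine, rose by 0.53 and SLC3A2 by 0.34. The other members that rose were PPP1R15A (0.79 ± 0.16), the phosphatase subunit that reverses eIF2 phosphorylation, the tRNA exporter XPOT (0.48), the glutathione-degrading enzyme CHAC1 (0.45), TRIB3 (0.39 ± 0.12), MARS (0.31), GARS (0.30), SLC1A5 (0.29) and SESN2 (0.27).

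In the same comparison 4 members fell. PHGDH, which opens the serine pathway, went from 90.04, 157.4 and 229.2 CPM under fulvestrant to 69.4, 110 and 152.3 CPM with FGF2 (-0.56 ± 0.08, adjusted p = 2.26e-07). PSPH, which closes that pathway, changed by -0.53 ± 0.10 and was lower in 23 of 24 libraries. ALDH1L2, a mitochondrial folate enzyme, changed by -0.48. NUPR1 stood at 169.3, 281.8 and 3218 CPM under fulvestrant and between 101.9 and 211.4 CPM with FGF2 (-1.47 ± 0.23, and -1.03 ± 0.12 without the libraries that stand apart). ATF4 mRNA had 86.2, 106.4 and 132.5 CPM against 83.9, 119.1 and 155.8 CPM and was not called (0.15 ± 0.07, adjusted p = 0.075). ASNS was not called either (-0.12 ± 0.10, adjusted p = 0.348). DDIT3, at 0.14 ± 0.21, was not called with all libraries, but without those that stand apart it rose by 0.55 (adjusted p = 0.000781) and ATF4 by 0.16 (adjusted p = 0.0492).

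**Figure D1:**
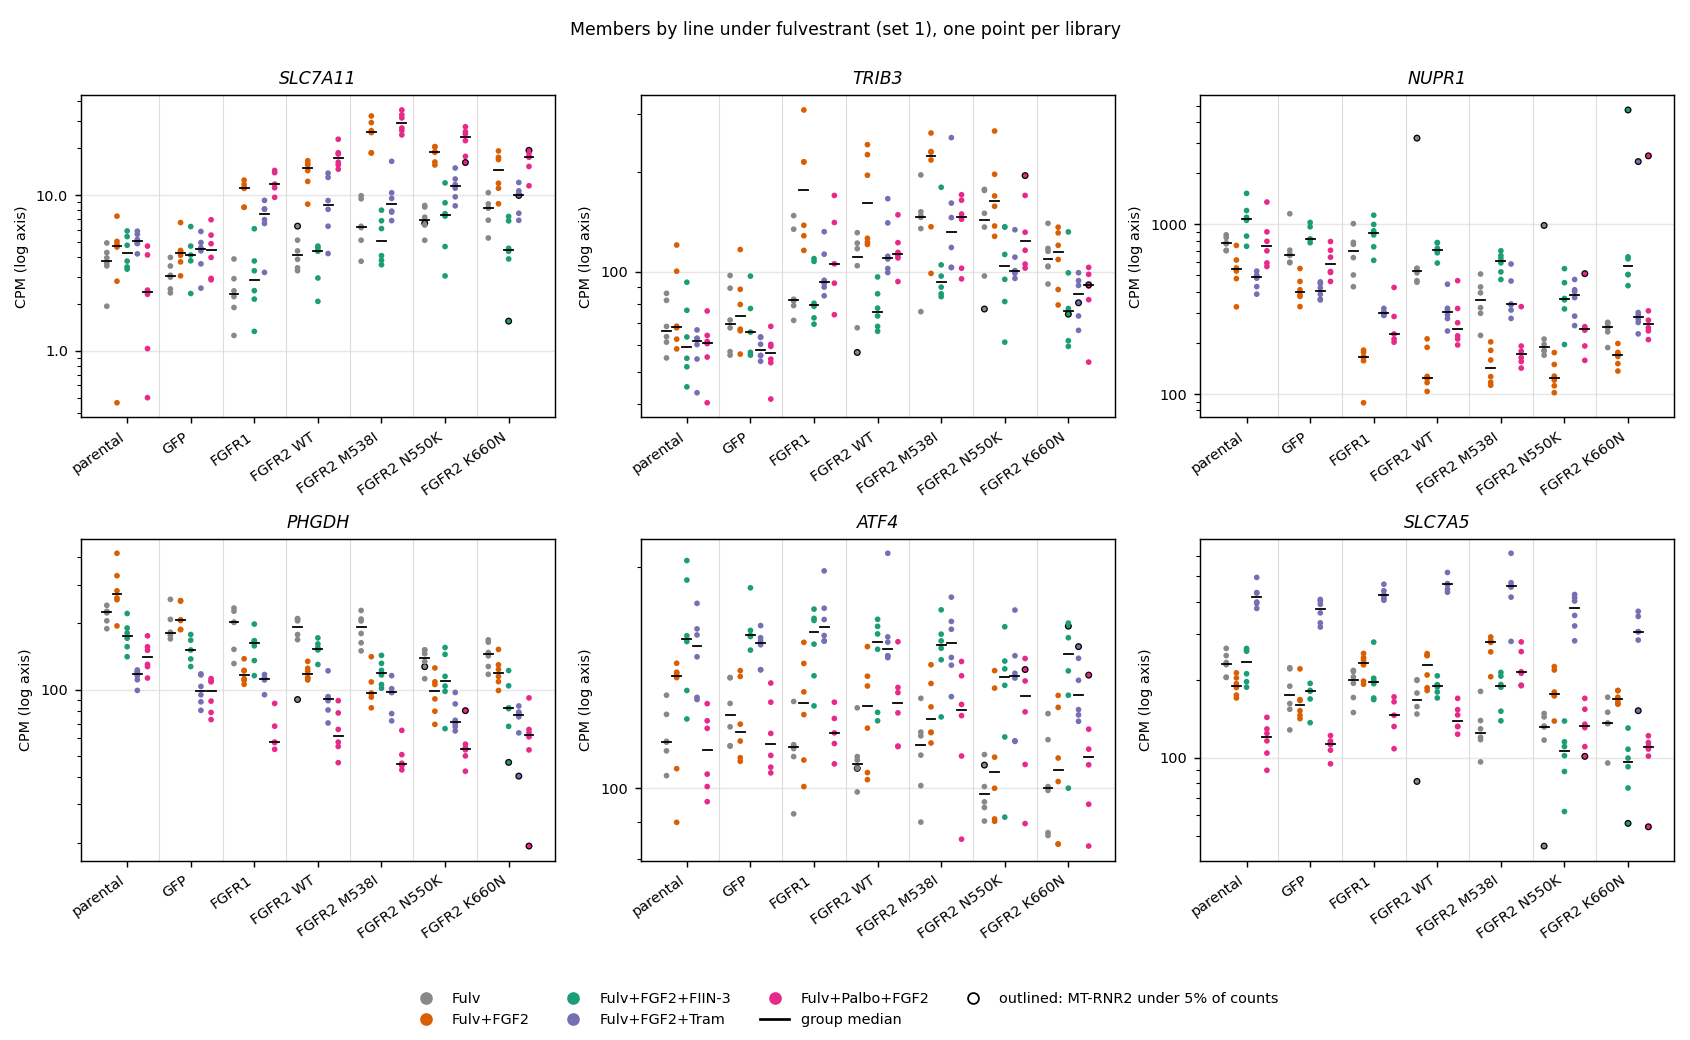
CPM (log axis) of 6 members in set 1 by line under the fulvestrant treatments, with 1 point for each library, a bar at the group median and outlined points for libraries that stand apart. SLC7A11 is higher with FGF2 than without it in the FGFR lines and lower again with FIIN-3, while NUPR1 moves the other way and the ATF4 median in each line is higher with FIIN-3 or trametinib than with fulvestrant and FGF2.

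In the FGFR1 line SLC7A11 and TRIB3 were again among the genes that rose and NUPR1, PHGDH and PSPH among those that fell. The difference from the FGFR2 lines was not tested. With FGF2 added to fulvestrant (6 libraries against 6), 11 of 36 members rose and 4 fell, where 12.7% of all genes rose and 14% fell. SLC7A11 went from 1.26, 2.33 and 3.89 CPM to 8.35, 11.1 and 12.5 CPM, with no overlap (2.06 ± 0.25, adjusted p = 1.76e-05). The methionyl-tRNA synthetase MARS went from 150, 202.1 and 225.6 CPM to 284.5, 340 and 399 CPM, also without overlap (0.76 ± 0.13). TRIB3 rose by 0.86 ± 0.24, and PPP1R15A by 0.74, the glutamine transporter SLC1A5 by 0.67, the mitochondrial PEP carboxykinase PCK2 by 0.61, SLC7A1 by 0.60 and AARS by 0.57. With the title number ranges as a replicate block SLC7A1 was at 0.468 (adjusted p = 0.156) and AARS at 0.256 (adjusted p = 0.205), neither called. NUPR1 went from 429, 699 and 1009 CPM to 88.9, 165.1 and 181.4 CPM, with no overlap (-2.18 ± 0.20, adjusted p = 7.88e-07). PSPH (-0.81), PHGDH (-0.73) and SLC38A2 (-0.42), a neutral amino acid carrier, fell as well. ATF4 (0.16 ± 0.13), DDIT3 (0.23 ± 0.19) and ASNS (-0.08 ± 0.15) were not called.

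The control lines were parental and GFP. With FGF2 added to fulvestrant, 9 of 37 members rose and 1 fell, where 7.02% of all genes rose and 4.95% fell. PSAT1, the middle enzyme of serine synthesis, went from 10.9, 17.3 and 28.4 CPM to 20.5, 30.3 and 36.4 CPM (0.75 ± 0.15, adjusted p = 0.000674). PCK2 rose by 0.49 ± 0.08, SLC7A1 and XPOT each by 0.54, SLC1A4, a carrier of serine and alanine, by 0.48, MTHFD2 by 0.31 and ASNS by 0.28 ± 0.09 (adjusted p = 0.0465). CBS rose by 1.07, but its counts are low and its near-identical copy CBSL makes them uncertain. NUPR1 fell by 0.67. SLC7A11 had medians of 3.80 CPM in the parental and 3.02 CPM in the GFP line under fulvestrant, and of 4.74 and 4.23 CPM with FGF2. ATF4 (0.04 ± 0.09), DDIT3 (-0.14 ± 0.15) and TRIB3 (0.14 ± 0.13) were not called.

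Without fulvestrant, FGF2 against DMSO gave 18 higher and 3 lower of 39 members in the 4 FGFR2 lines, where 21.4% of all genes were higher and 26.2% lower. The leading genes were SLC7A11 (1.40, adjusted p = 6.19e-10), PPP1R15A (1.17), TRIB3 (0.66 ± 0.14), MARS (0.54, or 0.305 without the libraries that stand apart), the proline enzyme ALDH18A1 (0.52, or 0.30 and not called) and WARS (0.48, or 0.294), with NUPR1 (-2.04), PHGDH (-0.61) and PSPH (-0.50) lower. Of the 23 DMSO libraries 6 stand apart, and leaving them out gave 14 called members, 9 higher and 5 lower, of which 11 were shared. NUPR1 then changed by -0.99, DDIT3 rose by 0.56 where it had been at -0.09 ± 0.20, and ASNS was at -0.21 (adjusted p = 0.0302) where it had been at -0.04 ± 0.11. With the replicate block MARS (0.208, adjusted p = 0.224) and WARS (0.298, adjusted p = 0.0812) were not called in the FGFR2 lines. In the FGFR1 line 8 members rose and 3 fell of 37, where 14.4% of all genes rose and 17.3% fell. SLC7A11 went from 1.71, 3.84 and 4.49 CPM (n = 5) to 12.1, 13.5 and 15.6 CPM (n = 6), without overlap (1.96 ± 0.26), while NUPR1 changed by -3.66, or -2.47 without the DMSO library that stands apart. Leaving out FGFR1 DMSO replicate 4 lowered the count of called members from 11 to 5, and leaving out replicate 3, which stands apart, raised it to 16. With the title number ranges as a replicate block TRIB3 rose (1.037, adjusted p = 4.67e-10) and ASNS fell (-0.507, adjusted p = 0.00364) in this line. In the control lines PSAT1 (0.62) and SLC1A4 (0.41) rose and NUPR1 fell (-1.47, or -0.82 without the GFP library that stands apart), where 3.70% of all genes rose and 2.42% fell. With the replicate block none of these members was called there, and TRIB3 (0.602, adjusted p = 0.00196) and CEBPG (0.399, adjusted p = 0.0312) rose instead. ATF4 was between -0.02 and 0.08 in these 3 comparisons and not called.

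Set 2 repeated the addition of FGF2 on palbociclib in other libraries. In the FGFR1 and 4 FGFR2 lines (28 libraries against 30), 16 of 36 members rose and 3 fell, where 22.1% of all genes rose and 24.7% fell. SLC7A11 went from 0, 3.98 and 12.3 CPM to 8.02, 16.5 and 46.4 CPM (1.90 ± 0.18, adjusted p = 1.86e-14). Here DDIT3 rose, from 13.5, 26.3 and 51.01 CPM to 20.4, 42.9 and 96.4 CPM, and did so in 28 of 28 libraries against their line's mean (0.82 ± 0.09, adjusted p = 3.64e-11). TRIB3 went from 41.95, 78.96 and 159.1 CPM to 80.1, 150.9 and 207.6 CPM (0.80 ± 0.09). CHAC1 (0.93), SLC7A1 (0.68), the stress sensor SESN2 (0.64), PCK2 (0.51) and PPP1R15A (0.48) rose, with 5 of 9 tRNA genes. NUPR1 (-1.09 ± 0.08), PHGDH (-0.80) and PSPH (-0.24) fell. ATF4 was at 0.13 ± 0.07 (adjusted p = 0.0985) and ASNS at 0.08 ± 0.07. In the control lines on palbociclib (9 libraries against 11) SLC7A5 alone was called, at -0.62 (adjusted p = 0.00447), where 0.778% of all genes rose and 0.331% fell, and TRIB3 was at 0.52 (adjusted p = 0.0614). Without the parental library that stands apart, 3 members fell there and TRIB3 alone rose (0.55, adjusted p = 0.00461).

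The difference in FGF2 response between line classes was tested directly at DMSO in set 1. Against the control lines, the response of the FGFR1 line was higher in SLC7A11 (difference in log2 fold change 1.41 ± 0.38, adjusted p = 0.0336) and lower in PHGDH (-1.21 ± 0.29, adjusted p = 0.0165), 2 members of 39, where 1.26% of all genes had a higher and 1.98% a lower response. In the 4 FGFR2 lines the response was higher in SLC7A5 (0.67 ± 0.19, adjusted p = 0.0461) and lower in PSPH (-0.65 ± 0.17, adjusted p = 0.0302) and PHGDH (-0.70 ± 0.19, adjusted p = 0.035), where 0.934% of all genes had a higher and 1.03% a lower response. Without the libraries that stand apart the counts were 8 for FGFR1 and 6 for FGFR2, and with the title number ranges as a replicate block they were 12 and 6. With all libraries and no block, ATF4, DDIT3, ASNS and TRIB3 did not pass in either, with TRIB3 at 0.58 ± 0.28 and 0.33 ± 0.22. With the block TRIB3 passed for FGFR1 (0.594, adjusted p = 0.0184).

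FIIN-3 was then added to fulvestrant and FGF2. The comparison shares its fulvestrant and FGF2 libraries with those on FGF2, trametinib and palbociclib, so no overlap of calls between them is given. In the wild-type, M538I and K660N FGFR2 lines (18 libraries against 18), 4 of 38 members rose and 16 fell, where 28.1% of all genes rose and 27% fell. The median over members was -0.22. Among the transporters 5 of 7 tested fell and 1 rose. SLC7A11 went from 8.75, 16.8 and 32.2 CPM to 1.55, 4.39 and 8 CPM, without overlap (-1.84 ± 0.15, adjusted p = 6.63e-14). NUPR1 rose, from 103.6, 154.8 and 211.4 CPM to 435, 635 and 4715 CPM, without overlap (2.44 ± 0.24, and 2.02 ± 0.10 without the library that stands apart).

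The other regulators split. CHAC1 (-1.31 ± 0.24), SESN2 (-0.80 ± 0.12, lower in 18 of 18 libraries), TRIB3 (-0.78 ± 0.14, adjusted p = 8.46e-06) and the partner factor CEBPG (-0.52) fell. ATF4 mRNA went the other way, from 83.9, 120 and 155.8 CPM to 100, 156.8 and 174.8 CPM (0.35 ± 0.08, adjusted p = 0.000466). SLC7A1 (-0.99), PCK2 (-0.70), PSAT1 (-0.70), SLC1A4 (-0.67) and the tryptophanyl-tRNA synthetase WARS (-0.66) were among the 8 largest falls. SLC38A2 (0.71 ± 0.11) and the cystathionine-cleaving enzyme CTH (0.49) rose. ASNS (0.05 ± 0.10) and DDIT3 (-0.09 ± 0.18) were not called. Without a replicate block, ATF4 mRNA thus rose under FIIN-3 in the same libraries in which 16 other members fell. With the title number ranges as a replicate block ATF4 was at 0.172 and not called (adjusted p = 0.0645). DDIT3 then fell (-0.471, adjusted p = 0.0355), and CTH was not called (0.344, adjusted p = 0.164).

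FIIN-3 in the FGFR1 line raised 5 and lowered 9 of 36 members, where 14.7% of all genes rose and 15.1% fell. SLC7A11 went from 8.35, 11.1 and 12.5 CPM to 1.33, 2.85 and 6.08 CPM (-1.66 ± 0.28) without overlap. TRIB3 went from a median of 176.1 CPM (highest 307.5) to 69.5, 79.5 and 110 CPM, also without overlap (-1.08 ± 0.21). NUPR1 (2.52 ± 0.18), CTH (0.98), SLC38A2 (0.98), PSPH (0.62) and PHGDH (0.43) rose, and ATF4 was at 0.31 ± 0.13 (adjusted p = 0.0817). With the replicate block CTH (0.922, adjusted p = 0.0546) and PHGDH (0.269, adjusted p = 0.0912) were not called. In the N550K line 1 member rose and 11 fell of 36, where 9.39% of all genes rose and 8.02% fell. SLC7A11 went from 15.6, 18.9 and 20.5 CPM to 3.03, 7.46 and 11.97 CPM (-1.29 ± 0.25), SLC7A1 fell by 1.17, SESN2 by 1.10, SLC7A5 by 0.79 and TRIB3 by 0.71, while NUPR1 rose by 1.56. Tested directly, the FIIN-3 response of N550K minus that of the other FGFR2 lines passed for 0 of 39 members in edgeR's test, where 1182 genes had an unadjusted p under 0.05, 1.41% of all genes passed as higher and 0.187% as lower. The list of ERK output genes fell in 6 of 7 tested in N550K and in 7 of 8 in the other lines, and 5 of 8 passed the difference test.

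In the control lines FIIN-3 raised 7 and lowered 14 of 37 members, where 10.9% of all genes rose and 13.8% fell. PSAT1 went from 20.5, 30.3 and 36.4 CPM to 14.01, 15.7 and 18.9 CPM (-0.90, adjusted p = 4.65e-08) and SLC1A4 from 19.9, 26.9 and 33.5 CPM to 10.6, 13.95 and 19.5 CPM (-0.89 ± 0.12), both without overlap. PCK2 fell by 0.75, SLC7A1 by 0.74 and PHGDH by 0.61, and 5 of the 6 serine and one-carbon enzymes fell. NUPR1 rose by 1.03 ± 0.12, SLC38A2 by 0.78, PPP1R15A by 0.67, DDIT3 by 0.51 ± 0.15 and ATF4 by 0.38 ± 0.09 (adjusted p = 0.00282). With the replicate block ATF4 was at 0.195 (adjusted p = 0.118) and DDIT3 at 0.271 (adjusted p = 0.262), neither called. TRIB3 was at -0.25 ± 0.14 and ASNS at -0.03 ± 0.10, neither called.

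On palbociclib and FGF2 in set 2, FIIN-3 raised 8 and lowered 16 of 36 members in the FGFR1, wild-type, M538I and K660N lines (23 libraries against 23), where 27.9% of all genes rose and 25.9% fell. WARS went from a median of 410 CPM (highest 590) to a median of 238.6 CPM (lowest 173.6) and NUPR1 from 72.2, 161.4 and 264.9 CPM to 321.5, 436 and 1219 CPM, both without overlap (-0.81 ± 0.06 and 1.57 ± 0.09). SLC7A11 (-1.76 ± 0.16), SESN2 (-0.96), CHAC1 (-0.79), TRIB3 (-0.68 ± 0.08), PCK2 (-0.60) and PYCR1 (-0.42) fell, with 5 of 9 tRNA genes. ATF4 went from 42.6, 95.6 and 123.7 CPM to 112.9, 137.9 and 253.8 CPM and was higher in 23 of 23 libraries than its line's mean (0.56 ± 0.08, adjusted p = 2.3e-08). SLC38A2 (0.66), ATF3 (0.58) and PHGDH (0.51) rose, while DDIT3 (-0.18 ± 0.13) and ASNS (-0.04 ± 0.08) were not called. In the N550K line 3 members rose and 10 fell, where 9.71% of all genes rose and 11.2% fell. There ATF4 went from a median of 94.3 CPM (lowest 87.3) to between 122.8 and 159.2 CPM (0.55 ± 0.10) and SLC7A5 from 149.1, 158.3 and 168.4 CPM to 72.2, 91.8 and 115.6 CPM (-0.73 ± 0.11), both without overlap.

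**Figure D2:**
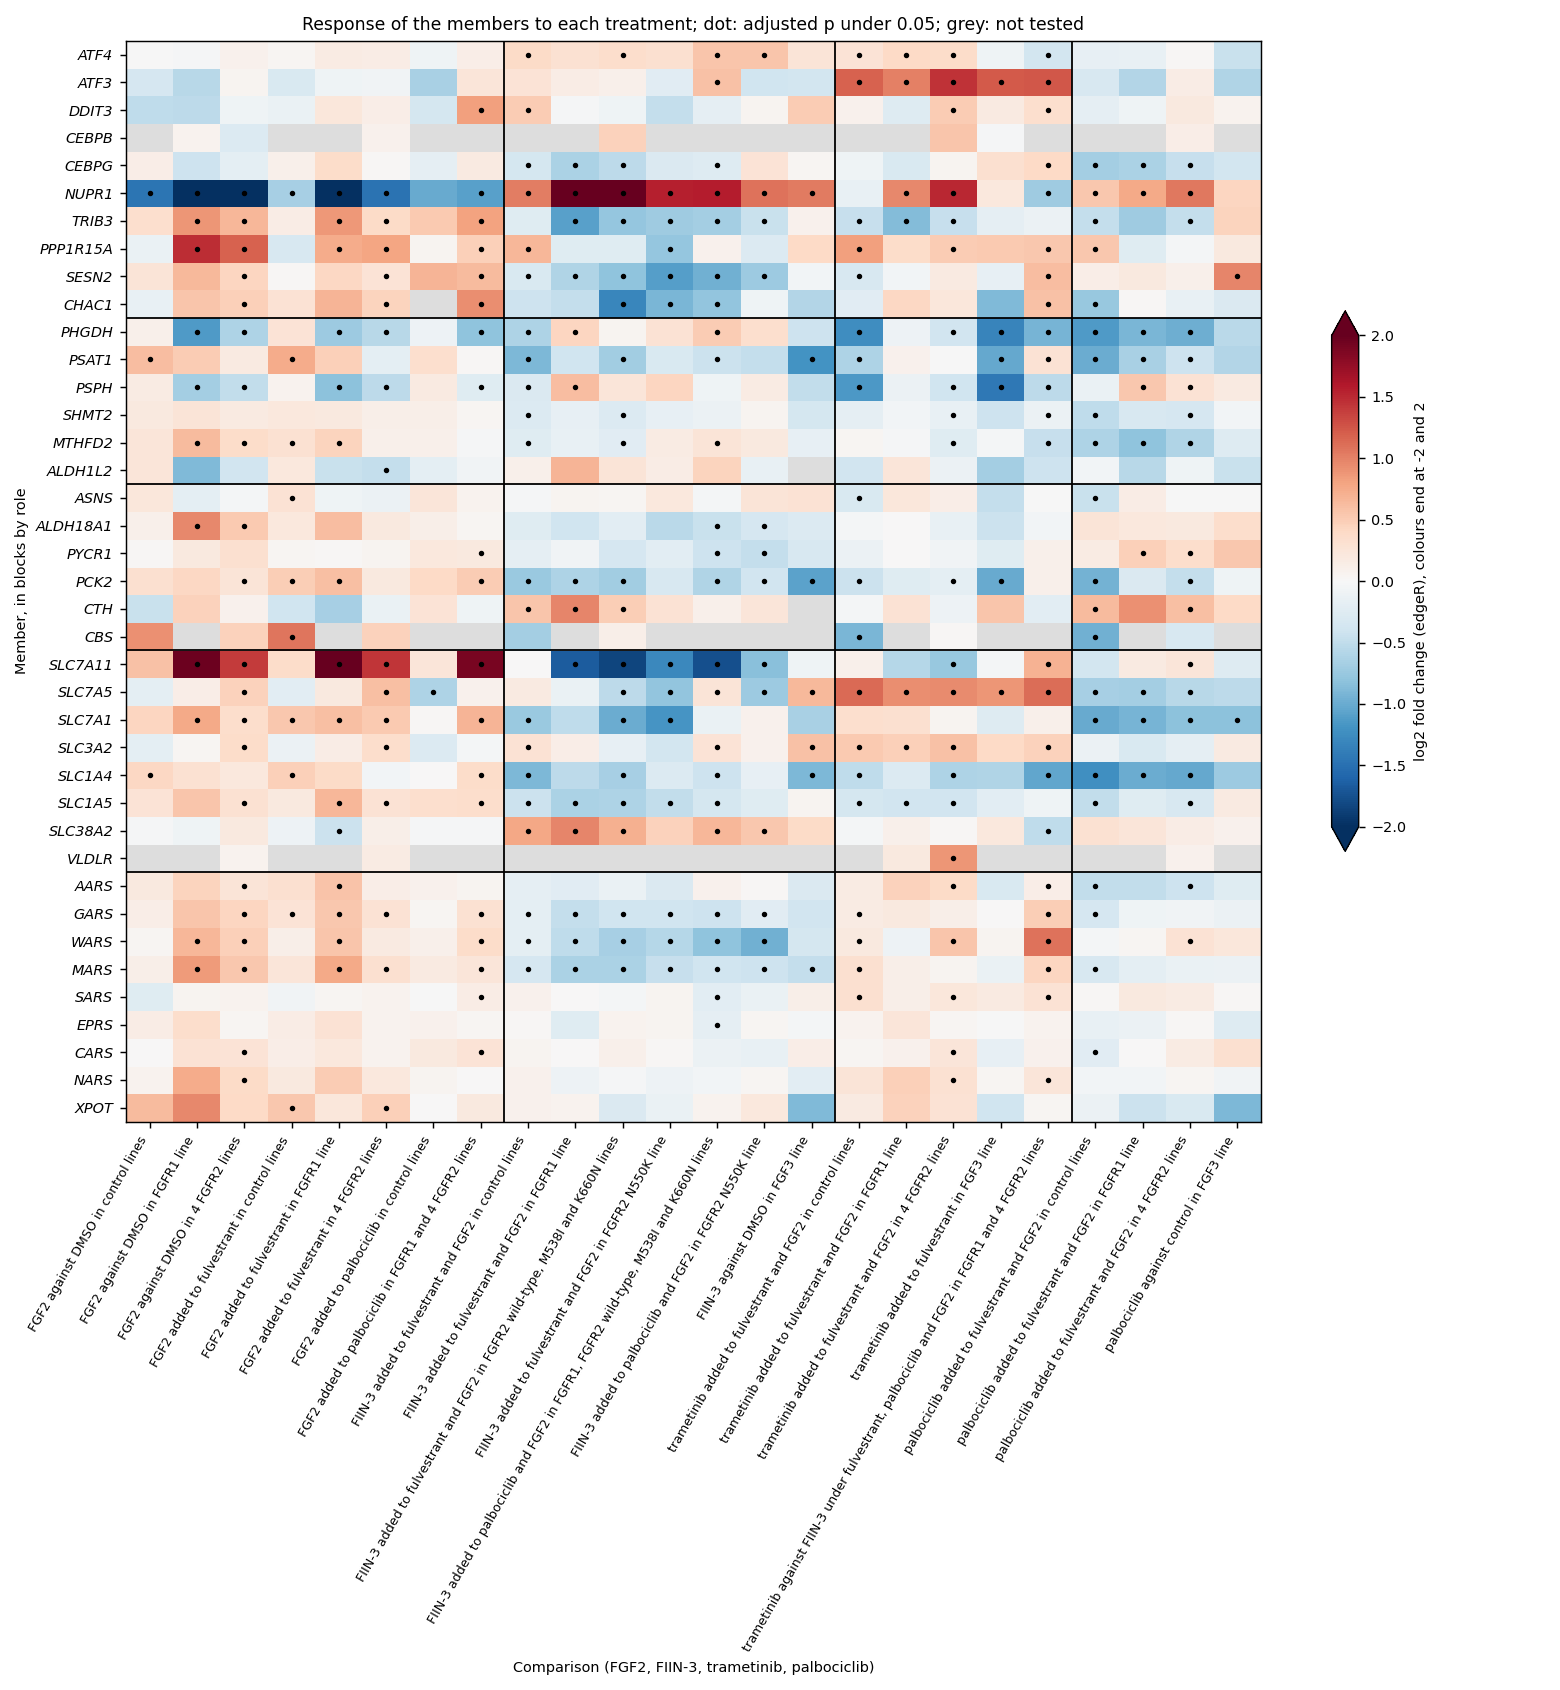
Log2 fold changes of the members (rows, by role) in 24 comparisons (columns, in blocks for FGF2, FIIN-3, trametinib and palbociclib), with a dot where a value was called at adjusted p under 0.05 and grey where a member was not tested. The SLC7A11 row is positive under FGF2 and negative under FIIN-3 in the receptor lines, and the NUPR1 row has the opposite signs.

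Trametinib blocks MEK, the kinase above ERK in the receptor pathway. In the control lines on fulvestrant and FGF2 (12 libraries against 12), it raised 9 and lowered 10 of 37 members, where 11.8% of all genes rose and 16% fell. ATF3, an early stress factor, went from 5.35, 8.35 and 11.8 CPM to 16.9, 18.9 and 24.4 CPM (1.17 ± 0.12), and SLC7A5 from 141.6, 172.3 and 220 CPM to 319.3, 396 and 496 CPM (1.14 ± 0.07, adjusted p = 2.7e-13), both without overlap. PHGDH went from 187.6, 253.5 and 418 CPM to 80.4, 113.2 and 122.8 CPM (-1.24 ± 0.10) and PSPH from 45.6, 59.8 and 75.3 CPM to 23.3, 27.3 and 32.1 CPM (-1.14 ± 0.08), again without overlap. PPP1R15A (0.82), SLC3A2 (0.53), SARS (0.32), MARS (0.31) and ATF4 (0.27 ± 0.08, adjusted p = 0.00921) rose. PSAT1 (-0.62), SLC1A4 (-0.51), TRIB3 (-0.46 ± 0.12), PCK2 (-0.44) and ASNS (-0.30 ± 0.09) fell, and DDIT3 was at 0.08 ± 0.13. With the replicate block TRIB3 was at -0.226 and not called (adjusted p = 0.0615). All called tRNA genes, 4 of 9, rose, and all called serine enzymes, 3 of 6, fell.

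In the 4 FGFR2 lines trametinib raised 13 and lowered 9 of 39 members, where 15.3% of all genes rose and 13.7% fell. ATF3 went from 3.09, 7.75 and 12.99 CPM to 10.5, 19.8 and 52.03 CPM (1.44 ± 0.13) and SLC7A5 from 138.6, 195.9 and 292.2 CPM to 151.9, 415 and 614 CPM (0.94 ± 0.08). NUPR1 rose by 1.51, or 1.202 without the libraries that stand apart. WARS (0.56), SLC3A2 (0.59), DDIT3 (0.51 ± 0.14), PPP1R15A (0.51) and ATF4 (0.37 ± 0.07, adjusted p = 9.85e-06) rose, and VLDLR (0.88) did at very low counts. SLC7A11 went from 8.75, 17.2 and 32.2 CPM to 4.21, 9.84 and 16.5 CPM (-0.77 ± 0.12). SLC1A4 (-0.62), TRIB3 (-0.47 ± 0.11), PSPH (-0.41), SLC1A5 (-0.39) and PHGDH (-0.38) fell, and ASNS was at 0.13 ± 0.09. With the replicate block TRIB3 was at -0.166 and not called (adjusted p = 0.246). In the FGFR1 line 5 members rose and 2 fell of 37, where 5.48% of all genes rose and 5.83% fell. ATF4 went there from 100.5, 130.5 and 157.9 CPM to 158.5, 165.5 and 197.5 CPM, without overlap (0.40 ± 0.10, adjusted p = 0.0163), and TRIB3 fell by 0.88 (-0.497 and not called with the replicate block, adjusted p = 0.0803), with DDIT3 at -0.26 ± 0.12 and ASNS at 0.22 ± 0.12.

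The inhibitors were set against each other under fulvestrant, palbociclib and FGF2 in set 2, over the FGFR1 and 4 FGFR2 lines (29 libraries of trametinib against 28 of FIIN-3). With trametinib 16 of 36 members were higher and 8 lower, where 27.8% of all genes were higher and 31.1% lower. WARS stood at 181.2, 235.1 and 300 CPM with FIIN-3 and at 306.8, 462 and 1345 CPM with trametinib, without overlap (1.08 ± 0.07, adjusted p = 2.26e-22). SLC7A5 had 97.2, 320 and 401 CPM with trametinib, higher in 28 of 29 libraries than its line's mean with FIIN-3 (1.12 ± 0.09). ATF3 (1.24), SLC7A11 (0.70), SESN2 (0.62), CHAC1 (0.59), PPP1R15A (0.55) and GARS (0.50) were higher with trametinib, and so was DDIT3 (0.33 ± 0.09). ATF4 was lower with trametinib, at 63.4, 105.8 and 145.9 CPM against 113.9, 137.1 and 168.9 CPM (-0.37 ± 0.06, adjusted p = 1.87e-07). PHGDH had 20.7, 37.9 and 46.3 CPM with trametinib against 45.1, 72.7 and 94.01 CPM with FIIN-3 (-0.94 ± 0.06). SLC1A4 (-1.04), NUPR1 (-0.71), PSPH (-0.52), SLC38A2 (-0.51) and MTHFD2 (-0.46) were lower too. TRIB3 (-0.12 ± 0.08) and ASNS (-0.00 ± 0.07) were not called. LUM moved with this comparison, at 6.62, 18.4 and 94.98 CPM with trametinib against 0, 2.5 and 26.9 CPM with FIIN-3 (2.62 ± 0.22, adjusted p = 1.75e-17). The 12 markers of other cell types summed to 35.01, 50.2 and 117.95 CPM with trametinib and 22.1, 34.8 and 62.4 CPM with FIIN-3, and without LUM to medians of 29.7 and 31.9 CPM. COL1A1, the other marker tested, was at -0.04 ± 0.08, and COL1A2 had no read in these libraries. LUM also rose under trametinib in the FGFR2 lines on fulvestrant (1.49 ± 0.21) and fell under FIIN-3 in 3 of them (-1.68 ± 0.39), and its part in the members' results was not tested. The agents act at separate points of the receptor pathway and were used at 500 nM and 100 nM, so the doses differ.

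**Figure D3:**
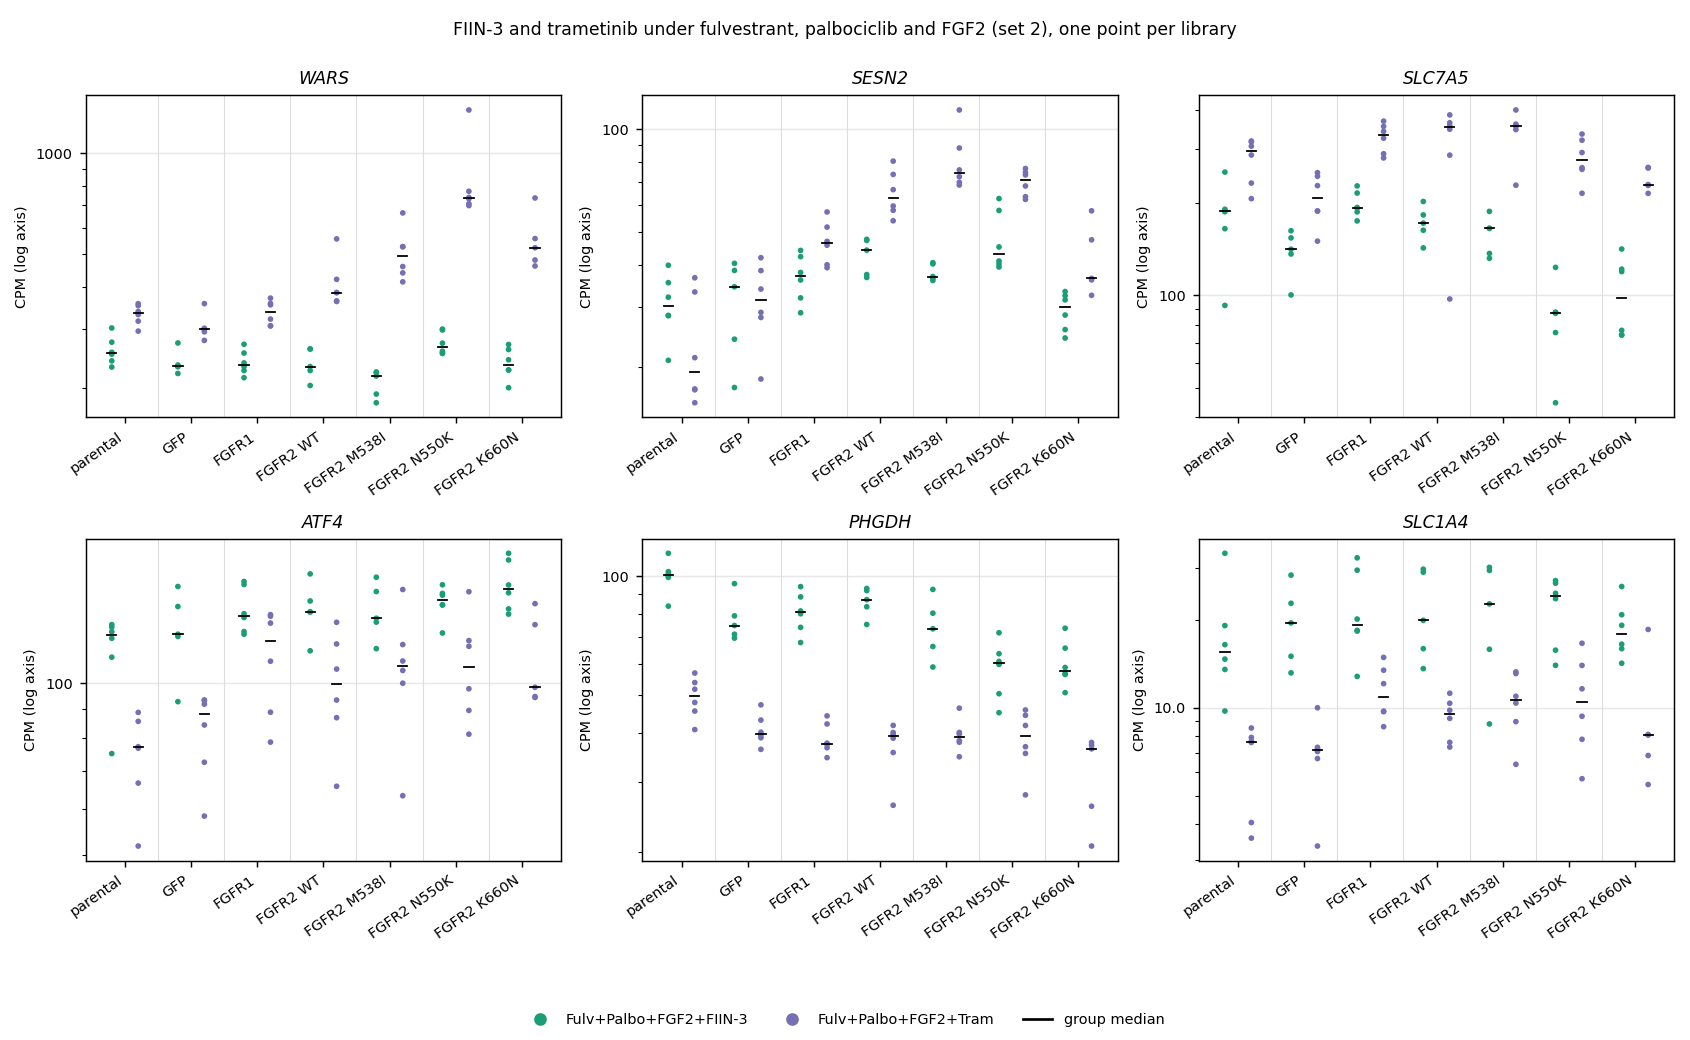
CPM (log axis) of 6 members in set 2 by line under fulvestrant, palbociclib and FGF2 with FIIN-3 or trametinib, with 1 point for each library and a bar at the group median. In the receptor lines WARS is higher in every library with trametinib (306.8 to 1345 CPM against 181.2 to 300 CPM), while ATF4 and PHGDH are mostly lower.

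Palbociclib, added to fulvestrant and FGF2, lowered more members than it raised. In the control lines (12 libraries against 12) 3 of 37 rose and 18 fell, where 11.3% of all genes rose and 14.6% fell, and the median over members was -0.32. SLC1A4 went from 19.9, 26.9 and 33.5 CPM to 7.96, 10.98 and 15.7 CPM (-1.22 ± 0.11, adjusted p = 1.78e-10) and PHGDH from 187.6, 253.5 and 418 CPM to 72.9, 112.5 and 175.6 CPM (-1.14 ± 0.11), both without overlap. PSAT1 (20.5, 30.3 and 36.4 to 12.2, 14.8 and 19.6 CPM) and PCK2 (lowest 92.9 and median 113.6 to 53.2, 56.6 and 87.9 CPM) did not overlap either (-0.99 ± 0.11 and -0.94 ± 0.09). SLC7A1 (-1.01), CHAC1 (-0.76), CEBPG (-0.68) and, at low counts, CBS (-0.95) fell. TRIB3 (-0.48 ± 0.13) and ASNS (-0.44 ± 0.09, adjusted p = 0.000395) fell, and ATF4 (-0.16 ± 0.09) and DDIT3 (-0.18 ± 0.14) were not called. With the replicate block TRIB3 was at -0.249 and not called (adjusted p = 0.0806). By role, 4 of 6 serine enzymes, 4 of 7 transporters and 4 of 9 tRNA genes fell and none of these rose. CTH (0.64), PPP1R15A (0.54) and NUPR1 (0.54) rose.

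In the 4 FGFR2 lines palbociclib raised 6 and lowered 12 of 39 members, where 18% of all genes rose and 17.6% fell. SLC1A4 went from 16.8, 26.4 and 46.3 CPM to 6.20, 13.5 and 22.7 CPM (-1.03 ± 0.11) and PHGDH from 69.4, 110 and 152.3 CPM to 19.4, 54.8 and 91.6 CPM (-0.97 ± 0.09), lower in 24 of 24 libraries each. SLC7A1 (-0.81), MTHFD2 (-0.60), SLC7A5 (-0.55), PCK2 (-0.48) and TRIB3 (-0.47 ± 0.11) fell. NUPR1 (1.05, or 0.63 without the libraries that stand apart), CTH (0.60), PYCR1 (0.36), WARS (0.29), PSPH (0.29) and SLC7A11 (0.24) rose. With the replicate block WARS (0.243, adjusted p = 0.157) and PSPH (0.184, adjusted p = 0.178) were not called. ATF4 (0.02 ± 0.08), DDIT3 (0.20 ± 0.15) and ASNS (-0.01 ± 0.10) were not called. In the FGFR1 line (5 libraries against 6) 3 members rose and 7 fell, where 4.37% of all genes rose and 8.32% fell. SLC1A4 (-0.996), SLC7A1 (-0.93), PHGDH (-0.91) and MTHFD2 (-0.80) led the falls there, and SLC1A4 (12.5, 15.4 and 18.8 CPM against 20.5, 27.5 and 43.7 CPM) did not overlap.

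**Figure D4:**
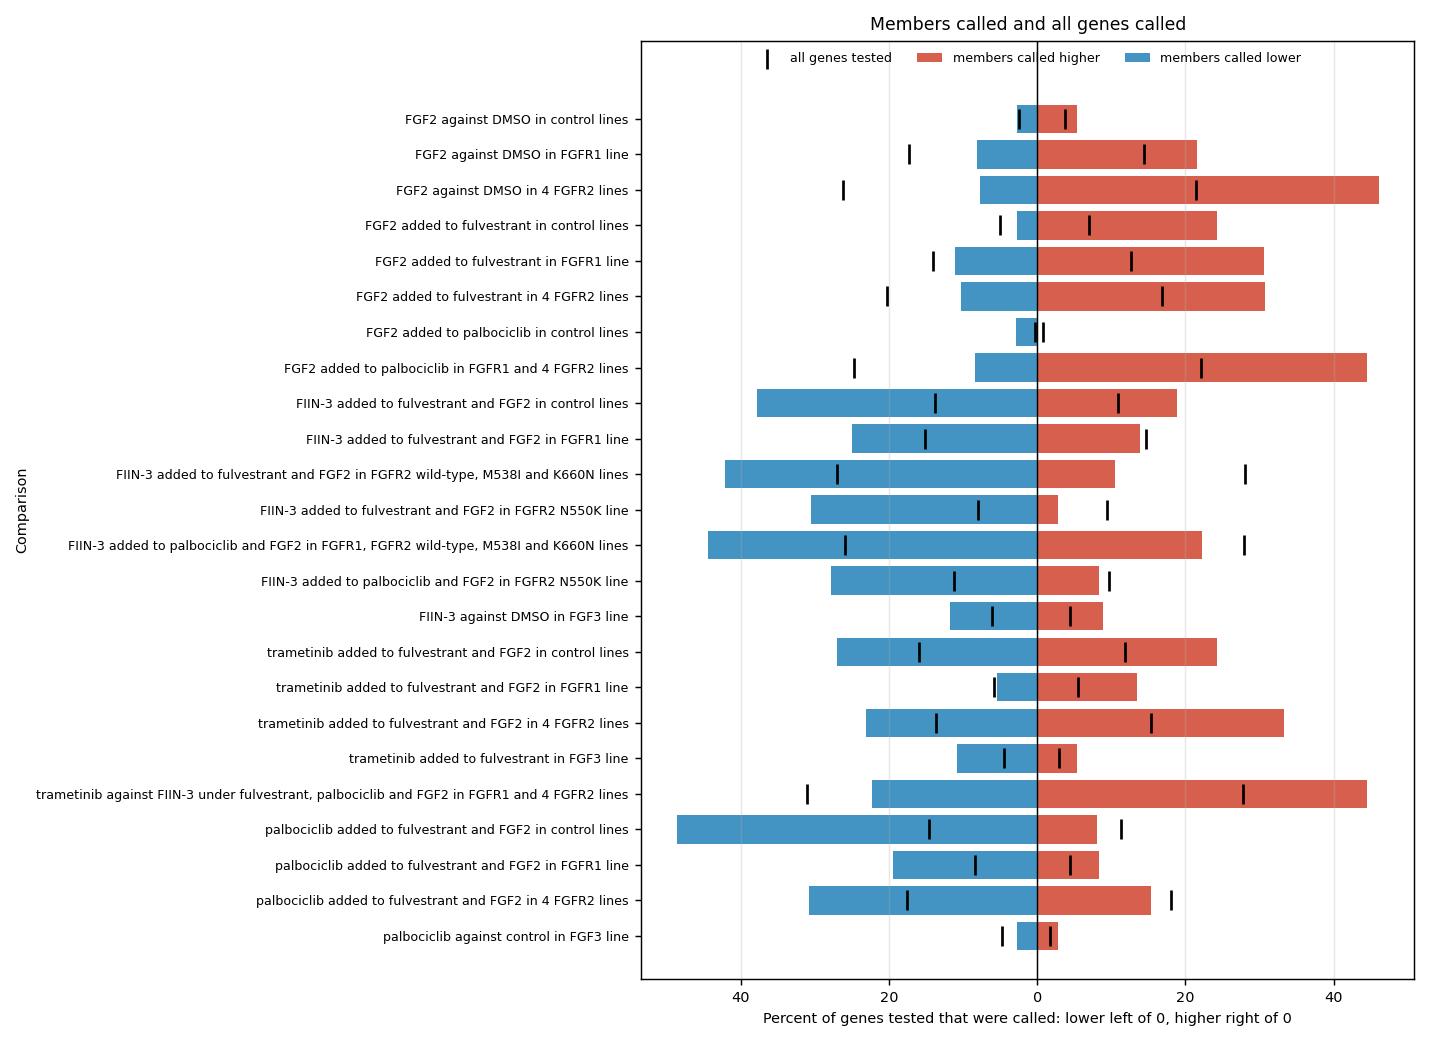
Percent of the members tested that were called lower (bars left of 0) or higher (bars right of 0) in 24 comparisons, with a black tick for the percent of all genes tested that were called in that direction. Under palbociclib in the control lines the lower bar, 18 of 37 members, lies beyond the tick at 14.6%, while under FIIN-3 in 3 FGFR2 lines the higher bar, 4 of 38 members, falls short of the tick at 28.1%.

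Fulvestrant alone moved few members. In the 4 FGFR2 lines ATF4 went from 103.6, 121.7 and 157.8 CPM at DMSO to 86.2, 106.4 and 132.5 CPM (-0.21 ± 0.06, adjusted p = 0.0407) and SLC7A5 from 65.8, 200.5 and 304.5 CPM to 45.7, 135.9 and 200 CPM (-0.46 ± 0.13, adjusted p = 0.0365). These were 2 of 39 members, where 1.08% of all genes rose and 1.86% fell. Without the libraries that stand apart SLC7A5 (-0.60) and SLC3A2 fell and ATF4 was not called. With the replicate block ATF4 (-0.211, adjusted p = 0.00356) and SLC7A5 (-0.432, adjusted p = 0.00398) were lower and SESN2 was higher (0.314, adjusted p = 0.0223). In the control lines edgeR's test called 0 of 36 members, where 1972 genes had an unadjusted p under 0.05, 0.572% of all genes rose and 0.977% fell. With the title number ranges as a replicate block, and in DESeq2's test, the count there was 1, and without the GFP library that stands apart SLC7A5 (-0.50) and SLC3A2 fell.

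At DMSO the receptor lines were compared with GFP (6 libraries each). In K660N, SLC7A11 stood at 6.46, 8.06 and 11.2 CPM against 2.27, 3.71 and 5.79 CPM in GFP, without overlap, and was the only member called (1.14 ± 0.27, adjusted p = 0.0398), where 0.923% of all genes were higher and 0.591% lower. TRIB3 was at 0.79 ± 0.19 (adjusted p = 0.0545). In N550K edgeR called 0 of 37 members, where 0.954% of all genes were higher, 0.644% lower and 1479 had an unadjusted p under 0.05, and TRIB3 was at 0.95 ± 0.26 (adjusted p = 0.0958). DESeq2 called 1. With the replicate block the counts were 2 in N550K and 2 in K660N. TRIB3 was then called higher in both, at 0.88 (adjusted p = 0.0182) in N550K and 0.769 (adjusted p = 0.0132) in K660N. The other called members were SLC38A2 in N550K (-0.804, adjusted p = 0.0428) and SLC7A11 in K660N (1.156, adjusted p = 0.0346). GFP DMSO replicate 6 and N550K DMSO replicates 3 and 4 stand apart, and without them 7 members passed in N550K, among them TRIB3 (1.18), SLC7A11 (1.14) and NUPR1 (-1.28), and without the GFP library 6 passed in K660N, TRIB3 (0.75, adjusted p = 0.00828) among them. ATF4, DDIT3 and ASNS were not called in either line with all libraries (ATF4 -0.16 ± 0.18 and -0.17 ± 0.17).

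The FGF3 line carries the ligand and had lower depth, holding 14 of the 20 low-depth libraries of set 1. At DMSO (5 libraries against 6 of GFP) EPRS, the bifunctional glutamyl-prolyl-tRNA synthetase, was lower, at 78.8, 99.9 and 113.3 CPM against 141.6, 161.7 and 214.9 CPM, without overlap (-0.80 ± 0.22, adjusted p = 0.0376), where 3.24% of all genes were higher and 3.94% lower. Without GFP DMSO replicate 6 the number of members called rose from 1 to 8, ASNS (-0.70, adjusted p = 0.0333) among them, and without FGF3 DMSO replicate 1 it was 0. FIIN-3 against DMSO in this line lowered 4 and raised 3 of 34 members, where 4.39% of all genes rose and 6.03% fell. PCK2 went from 85.6, 111.7 and 139.3 CPM to 47.9, 57.8 and 60.5 CPM (-1.08 ± 0.16) and NUPR1 from 414, 518 and 528 CPM to 797, 961 and 1310 CPM (1.04 ± 0.15), both without overlap, and PSAT1 (-1.202), SLC1A4 (-0.89) and MARS (-0.48) fell while SLC7A5 (0.64) and SLC3A2 (0.59) rose. Trametinib on fulvestrant (6 libraries against 4) lowered PSPH (-1.43), PHGDH (-1.31), PSAT1 (-1.02) and PCK2 (-1.01) and raised ATF3 (1.23) and SLC7A5 (0.88), 6 of 37 members, where 2.99% of all genes rose and 4.44% fell. PSPH went from 61.8, 72.6 and 75.7 CPM to 18.9, 26.4 and 33.1 CPM, without overlap. Palbociclib in set 2 raised SESN2 (0.98, adjusted p = 0.0413) and lowered SLC7A1 (-0.83, adjusted p = 0.0172) of 36 members, where 1.73% of all genes rose and 4.80% fell. Without FGF3 control replicate 3, which stands apart and has the lowest depth of set 2, 12 members passed, 2 higher and 10 lower, and ATF4 was among the lower (-0.55, adjusted p = 0.0147). With all libraries ATF4, DDIT3, ASNS and TRIB3 were called in none of these 4 comparisons.

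Over the 29 comparisons of 2 conditions or lines, 38 members were called at least once and 28 in both directions. Such counts say little about the members: of 9702 genes tested in all 29 comparisons, 96.3% were called at least once and 75.6% in both directions, and of the 33 members tested in all of them 33 and 26 (78.8%) were. NUPR1 was called most often, 12 times higher and 8 lower, then SLC7A5 (9 and 8). PHGDH was higher in 2 and lower in 13, PSPH in 3 and 10, PSAT1 in 3 and 9, PCK2 in 4 and 11, and SHMT2, a mitochondrial serine enzyme, in 0 and 6. With all libraries and no replicate block, SLC3A2 (9 and 0), ATF3 (6 and 0), CTH (5 and 0) and DDIT3 (4 and 0) were called higher only. Under other settings SLC3A2 and DDIT3 were also called lower. SLC3A2 fell under FGF2 at DMSO in the control lines without the library that stands apart (-0.301, adjusted p = 0.0162). DDIT3 fell under FIIN-3 in 3 FGFR2 lines with the block (-0.471, adjusted p = 0.0355). ATF4 was higher in 7 and lower in 2, and ASNS higher in 1 and lower in 2. CEBPB, tested in 10, was called in none and had no read in 26 libraries of set 1 and 83 of set 2. VLDLR had none in 49 and 61, and CBS in 35 and 81. These counts share control libraries and are a tally, not independent tests.

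The group means of the members span unequal ranges. In set 1 SLC7A11 covered 3.66 log2 CPM between its lowest and highest group, NUPR1 3.20 and ATF3 3.07, whereas ATF4 covered 0.85, CARS 0.80 and SARS 0.56. In set 2 SLC7A11 covered 3.48 and NUPR1 2.86. As a mean over all 39 members, group values lay between 5.08 log2 CPM (K660N with fulvestrant, FGF2 and FIIN-3, SD 0.41, with 1 library that stands apart at 4.28) and 5.76 (wild-type FGFR2 with fulvestrant, FGF2 and trametinib) in set 1. In set 2 they lay between 5.36 (FGF3 line with fulvestrant, palbociclib and trametinib, n = 4) and 5.83 (M538I with palbociclib and FGF2, n = 5). The mean covers a narrower range than SLC7A11, NUPR1 or ATF3 does alone.

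**Figure D5:**
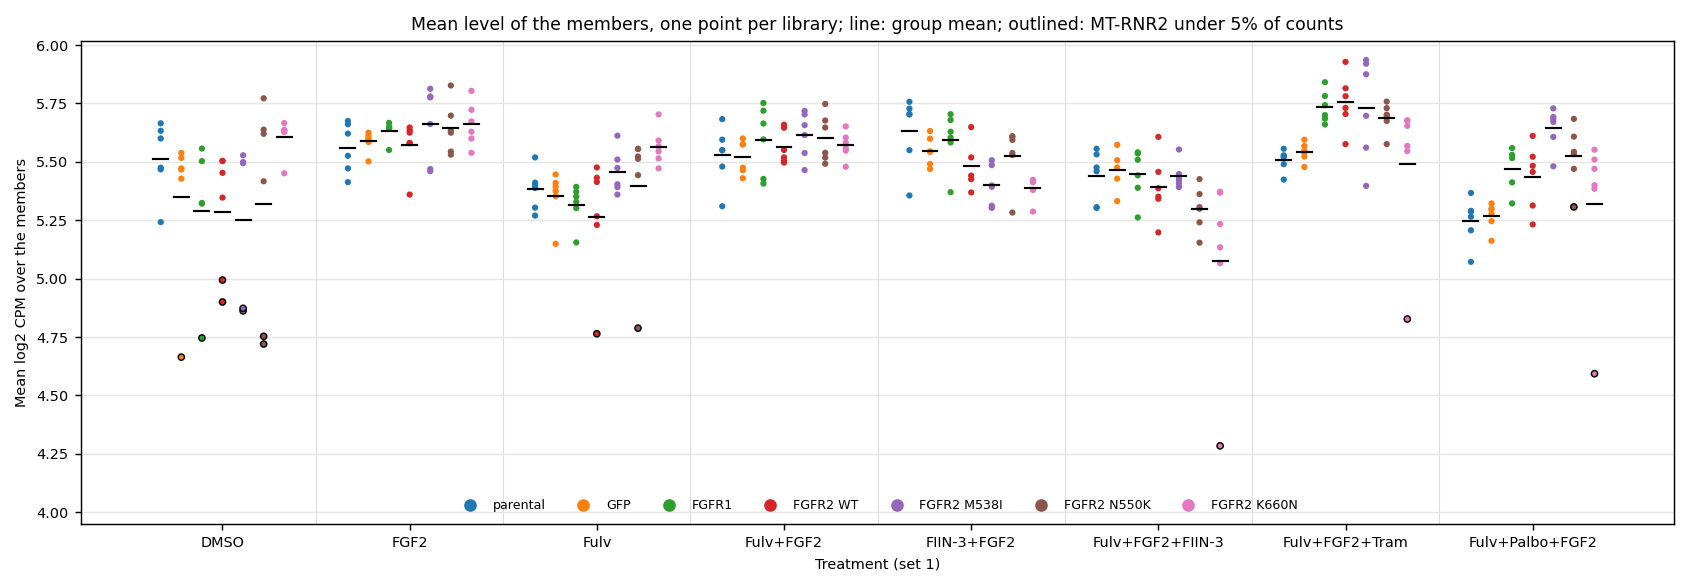
Mean log2 CPM over the 39 members in set 1, with 1 point for each library and a bar at the group mean, by line and treatment. Group means lie between 5.08 and 5.76, and the lowest single library, at 4.28, is among the outlined ones that stand apart.

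Members with and without the TGATGNAA letters were counted side by side, as a description. NUPR1, PSPH, SHMT2, ALDH1L2, PYCR1 and SLC7A11, which had no entry in the promoter table, are in neither count. Under palbociclib in the control lines 0 of the 13 members with the letters rose and 10 fell, and of 18 tested without them 2 rose and 7 fell, where 11.3% of all genes rose and 14.6% fell. With FGF2 on palbociclib in receptor lines 7 of 13 rose and 0 fell with the letters, and 7 rose and 1 fell of 17 without (22.1% and 24.7% of all genes). Under FIIN-3 in 3 FGFR2 lines 0 rose and 7 fell of 13 with the letters, and 3 rose and 7 fell of 19 without (28.1% and 27% of all genes). For trametinib against FIIN-3 these were 8 higher and 1 lower of 13, and 7 higher and 4 lower of 17 (27.8% and 31.1% of all genes).

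Related genes that are no members were read from lists. In this and the next paragraph each count is to be read against the share of all genes called in that comparison. Those shares stand with the members' results above, and a count near them says little about a list. The ERK output list rose in 7 of 8 with FGF2 on fulvestrant in the FGFR2 lines (DUSP6 2.14 ± 0.17), 5 of 5 in FGFR1 and 4 of 5 in the control lines, and fell in 8 of 8 with trametinib in FGFR2 lines (DUSP6 -5.18 ± 0.12). The cytosolic tRNA synthetases that are no members, with their scaffold genes, form a list of 15. With FGF2 on fulvestrant in the FGFR2 lines 10 rose and 1 fell (VARS 0.45, YARS 0.39), on FIIN-3 in 3 FGFR2 lines 1 rose and 12 fell (FARSB -1.01, FARSA -0.54), and with trametinib against FIIN-3 14 were higher and 1 lower (RARS 0.52, TARS 0.52). QARS moved against the rest of this list (0.60 with FIIN-3 and -0.41 for trametinib against FIIN-3). With FGF2 on palbociclib 12 of the 15 rose and 2 fell, while of the mitochondrial synthetases 0 of 17 rose and 8 fell. Of 16 genes for eIF2 and its kinases, 7 rose and 1 fell there (EIF2S1 0.33, EIF2D -0.39), and EIF2S1 was at -0.78 with FIIN-3 in the 3 FGFR2 lines.

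Of 14 folate enzymes outside the members, 7 fell and 1 rose under palbociclib in the control lines, with TYMS, which makes thymidylate for DNA synthesis, at -5.28 ± 0.18. With FIIN-3 in the 3 FGFR2 lines 8 fell and 2 rose (TYMS at -1.96). Among the other amino acid transporters tested in that comparison, SLC43A2 (1.56) and SLC7A8 (1.11) rose and SLC36A4 (-1.43) and SLC36A1 (-0.85) fell. On the mTORC1 and MYC list, MXD4 (1.31), MYC (1.13) and DDIT4 (0.90) rose there, 7 of 13 in all with 4 lower.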

How the data were processed

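The deposited table holds read counts per gene for 647 libraries, made by the authors with STAR and hg19 per the submitters' processing notes; the counter and annotation are not given in the sources used here. A second deposited table holds log2(TPM + 1) values, log2 of TPM, transcripts scaled for length and library total, by the authors; 91 of its columns matched a title and 556 were not used. It gave the TPM levels and 1 alternative test.

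Counts were normalized by TMM within a set and tested in R 4.3.3 with edgeR 4.0.16 (filterByExpr with a minimum count of 10, glmQLFit, glmQLFTest), each comparison fitted on its own groups with line as a term, and p-values were adjusted by Benjamini-Hochberg over all genes tested. SE is the log2 fold change divided by the square root of F. Levels are CPM on TMM library sizes, with a prior count of 2 on the log2 scale. DESeq2 1.42.0 and limma 3.58.1 were alternatives. The fits were also run on simulated counts with known changes. Those counts were drawn independently, without line or range effects and without libraries that stand apart, so the run does not cover these features. The text names up to 8 members per direction by fold change, in many comparisons also 4 set members (ATF4, DDIT3, ASNS, TRIB3), and up to 4 genes per list. A member left unnamed in a comparison may still have been called there. Members and lists were chosen with earlier results of these data known. Replicates are numbered in accession order. Within groups 1559 pairs of libraries differed by at least 2.64 in chi-square per degree of freedom, so none was taken as a duplicate. Pseudogenes of ATF4, ASNS, PSAT1, PSPH, SLC7A5 and several synthetases are in the table, and reads may be split with them. Title numbers fall into ranges of 96. In 8 of the 13 comparisons with 3 shared ranges, libraries in the same range deviated together (correlation over 0.1 in every range): the N550K, K660N and FGF3 lines at DMSO, fulvestrant, FIIN-3 in the FGF3 line, and FGF2 and FIIN-3 on palbociclib in receptor lines. With 2 shared ranges the correlation was over 0.1 in both in 11 of 19 comparisons, too few ranges to take the libraries as paired.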

Additional observations from a re-analysis of the deposited data

Results flagged for a closer look

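In 24 groups 1 library lay far from the rest in its mean log2 CPM over the members, where chance gives about 1 in 20 of the groups tested. Of these, 7 libraries have the low MT-RNR2 share: GFP DMSO replicate 6 (4.664), wild-type FGFR2 fulvestrant replicate 3 (4.764), N550K fulvestrant replicate 3 (4.788), K660N with fulvestrant, FGF2 and trametinib replicate 3 (4.827), with fulvestrant, palbociclib and FGF2 replicate 4 (4.593) and with fulvestrant, FGF2 and FIIN-3 replicate 1 (4.284), and FGF3 control replicate 3 of set 2 (5.128). The lowest of their groups in set 1 were also GFP fulvestrant 5 (5.149), GFP FGF2 4 (5.502), FGFR1 FGF2 3 (5.551), wild-type FGFR2 FGF2 6 (5.36), K660N DMSO 2 (5.451), and, with FIIN-3 and FGF2, FGFR1 1 (5.37), N550K 4 (5.283) and K660N 6 (5.287). N550K FIIN-3 replicate 1 (4.815) had the lowest depth of set 1, 512961 counts. The highest of their groups were M538I with fulvestrant, FGF2 and FIIN-3 replicate 1 (5.553) and N550K with fulvestrant and FIIN-3 replicate 3 (5.353). In set 2, FGFR1 (5.459) and N550K (5.433) with palbociclib, FGF2 and FIIN-3, each replicate 5, M538I with palbociclib and FGF2 replicate 1 (5.619, 689098 counts), N550K FIIN-3 5 (5.332) and K660N FIIN-3 6 (5.47) were lowest, and K660N palbociclib 4 (5.663) was highest.

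The response to FGF2 differed between line classes for 5 tests on 4 members. In the FGFR1 line minus the control lines the differences in log2 fold change were -1.208 for PHGDH and 1.408 for SLC7A11. In the 4 FGFR2 lines minus the control lines they were -0.702 for PHGDH, -0.651 for PSPH and 0.666 for SLC7A5. The part of the libraries that stand apart, which lie mostly at DMSO, in these differences was not tested beyond the counts without them.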

How the results depend on the processing

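Counts of members called moved past 1.5 times in these cases, with the count under the alternative given each time. Without libraries that stand apart they were 7 (N550K at DMSO), 6 (K660N), 8 (FGF3), 5 (FGF2, control lines), 2 (fulvestrant, control lines), 4 (FGF2 on palbociclib, control lines), 12 (palbociclib, FGF3 line), 8 (FGFR1 difference) and 6 (FGFR2 difference), and without low-depth libraries 12 (palbociclib, FGF3 line). DESeq2's Wald test gave 1 (N550K), 2 (K660N), 3 (FGF3), 1 (fulvestrant, control lines), 11 (FIIN-3, FGF3 line), 2 (FGF2 on palbociclib, control lines), 4 (palbociclib, FGF3 line) and 6 (FGFR1 difference), and its size factors 2 (K660N). No count filter gave 2 (K660N), 0 (fulvestrant, FGFR2), 4 (FGF2 on palbociclib, control lines), 4 and 1 (FGFR1 and FGFR2 differences) and 1 (N550K difference in FIIN-3 response). limma on the second table gave 0 for the FGF3 line and 0 for fulvestrant in FGFR2 lines, and was not run for the other comparisons, whose columns were not matched. With each replicate left out in turn the counts ran from 0 to 8 (FGF3 line), 5 to 16 (FGF2, FGFR1), 9 to 11 (palbociclib, FGFR1), 5 to 8 (FIIN-3, FGF3 line), 5 to 8 (trametinib, FGF3 line) and 10 to 14 (FIIN-3 on palbociclib, N550K). The cause was not tested.

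With title number range as replicate block the counts were 2 (N550K), 2 (K660N), 21 (FGF2, FGFR1), 9 (FGF2, FGFR2), 1 (fulvestrant, control lines), 6 (FGF2 on fulvestrant, control lines), 12 (trametinib, FGF3 line), 2 (FGF2 on palbociclib, control lines), 1 (palbociclib, FGF3 line), and 12 and 6 (FGFR1 and FGFR2 differences). The block moved no other count past 1.5 times, but for FGF2 at DMSO in the control lines it changed which members were called. DDIT3 under FGF2 in FGFR2 lines changed sign with the block (0.588) and without libraries that stand apart (0.559).

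The difference in mean over members moved with the median in its place: 0.343 (FGF3 line; 0.449 from the second table), 0.191 (fulvestrant, control lines), 0.017 (FGF2 on fulvestrant, control lines), -0.13 (trametinib, control lines), -0.201 (FIIN-3, FGF3 line), 0.229 and 0.129 (FGF2 on palbociclib, control and receptor lines). Among the values of named members, 2 lost and 1 gained a call under DESeq2's size factors, 30 lost and 3 gained one without a filter, and 45 lost and 8 gained one with the block. Not all of these changes are marked where the values are given. With a replicate left out 645 of 727 kept direction and call. Depth limits low members (CBS, VLDLR, CEBPB, CHAC1).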

Other observations

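Chaperone genes of the endoplasmic reticulum, which answer unfolded protein through ATF6 and XBP1 and are no members, moved with FGF2 and FIIN-3 on palbociclib in set 2. With FGF2 in the FGFR1 and 4 FGFR2 lines 15 of 18 rose and 0 fell, with a median log2 fold change of 0.39, led by DNAJB11 (0.94 ± 0.06), HYOU1 (0.70 ± 0.07), MANF (0.78 ± 0.09) and SDF2L1 (0.68 ± 0.08). With FIIN-3 added 1 rose and 16 fell (median -0.41), with DNAJB11 at -1.19 ± 0.07 and HYOU1 at -1.04 ± 0.07. With trametinib in place of FIIN-3 13 were higher and 2 lower. On fulvestrant in set 1, FGF2 raised 4 and lowered 1 of the 18 in the 4 FGFR2 lines, with HYOU1 at 0.72 ± 0.11. The FGF2 and FIIN-3 comparisons share the libraries with palbociclib and FGF2. The shares of all genes called in each of these comparisons stand with the members' results above, and these counts are to be read against them.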
